A study of Mus musculus with 49 samples.

Results

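The livers of PBS-treated mice that bore mammary tumors were compared with the other organs of the same animals, to describe the genes that mark liver in this setting. The 3 liver libraries were chosen by the labels for organ and treatment, out of 49 libraries in the series. They were set against the 15 libraries of tumor, lung, lymph node, spleen and bone marrow from the same 3 mice, with the mouse as a block. All animals were HuHER2 transgenic mice, which carry the human HER2 growth factor receptor gene and develop mammary tumors, and were palpated from the age of 7 months. The PBS mice received 1 intravenous injection of phosphate-buffered saline when a tumor was found. A second set of 3 such mice received iron oxide nanoparticles, which the labels call BP, at 5 mg Fe per mouse. Organs of BP mice except lung were divided, and 1 section went to whole-organ RNA. BP livers served to ask whether the liver genes of PBS mice were seen again in other animals. They were also compared with PBS livers. The series' design text gives day 7 after injection for the RNA samples, whereas a treatment protocol label gives 31 days. Every animal carried a tumor and the transgene, so these livers could not be compared with livers of tumor-free or wild-type mice. The labels state neither the promoter of the transgene nor the sex of the mice.

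The values are expected counts per gene from RNA sequencing of whole tissue. The 3 liver libraries held 11828600 to 14966500 counts, within the 10102800 to 19734800 of the other 15. Between 17214 and 17724 genes had a count in liver, against 19349 to 23241 in the other organs. Levels below are CPM, the usual measure of counts relative to the library total, scaled by the trimmed mean of M-values (TMM), and a gene at 0 in a liver library may have held up to 3 counts, or 0.346 to 0.479 CPM. Such limits cover counting error only. Liver values are in the order of PBS mice 1, 2 and 3. Mitochondrial transcripts made up 6.19 to 6.86% of liver counts. The lymph node library of PBS mouse 2 stood apart, with 28.6% mitochondrial counts and 1751 CPM of the brown fat gene Ucp1. Bulk tissue cannot separate a smaller number of cells of a type from less RNA per cell.

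The liver is built mainly of hepatocytes, which secrete most plasma proteins, store and release glucose, convert ammonia to urea, make bile acids and detoxify foreign compounds. Their gene program is known to depend on a network of transcription factors that includes HNF1, HNF4, the FOXA proteins and C/EBP. Kupffer cells (resident macrophages), fenestrated sinusoidal endothelium, vitamin A-storing stellate cells and bile duct cells make up most of the remainder.

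Promoter sequences of 5 genes of this program are shown first, because they hold letters known as binding motifs of those factors. The sequences are RefSeq windows on GRCm38.p6, from 250 bases before to 50 after a gene's start site, and were chosen after the matches had been seen. Capitals mark the fixed letters of the motifs searched on both strands, which were GTTAATNA for HNF1, CAAAGTCC for HNF4, TGTTTAC for FOXA, TTGCNNAA for C/EBP and TATAAA for the TATA box. No hits of different motifs overlapped in these windows. The window of Alb (serum albumin) lies at chr5:90460620-90460919 on the plus strand, that of Gc (vitamin D-binding protein) at chr5:89457849-89458148 on the minus strand and that of Fga (a fibrinogen chain) at chr3:83025903-83026202 on the plus strand. The window of G6pc (glucose-6-phosphatase) lies at chr11:101367466-101367765 and that of Apoa2 (an apolipoprotein of high-density lipoprotein) at chr1:171224804-171225103, both on the plus strand. The capitals are an HNF1 and a C/EBP match in Alb and Fga, an HNF1 match in Gc, an HNF1 match and a TATA box in G6pc, and a FOXA match and a distant TATAAA in Apoa2.
Alb: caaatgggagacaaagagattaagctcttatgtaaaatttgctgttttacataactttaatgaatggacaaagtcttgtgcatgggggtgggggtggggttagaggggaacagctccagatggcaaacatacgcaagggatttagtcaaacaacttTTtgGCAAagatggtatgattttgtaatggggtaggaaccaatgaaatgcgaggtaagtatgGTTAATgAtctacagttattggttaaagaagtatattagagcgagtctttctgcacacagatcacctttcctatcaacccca
Gc: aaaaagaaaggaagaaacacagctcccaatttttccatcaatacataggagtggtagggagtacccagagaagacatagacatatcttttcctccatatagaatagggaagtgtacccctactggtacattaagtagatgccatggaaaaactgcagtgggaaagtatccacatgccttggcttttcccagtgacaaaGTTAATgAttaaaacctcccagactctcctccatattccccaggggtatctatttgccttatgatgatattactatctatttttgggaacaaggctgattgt
Fga: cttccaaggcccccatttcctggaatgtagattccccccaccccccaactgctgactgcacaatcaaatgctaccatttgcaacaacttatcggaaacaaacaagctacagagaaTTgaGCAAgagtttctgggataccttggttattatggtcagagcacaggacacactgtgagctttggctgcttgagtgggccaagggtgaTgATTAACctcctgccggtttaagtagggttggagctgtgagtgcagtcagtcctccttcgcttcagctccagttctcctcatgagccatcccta
G6pc: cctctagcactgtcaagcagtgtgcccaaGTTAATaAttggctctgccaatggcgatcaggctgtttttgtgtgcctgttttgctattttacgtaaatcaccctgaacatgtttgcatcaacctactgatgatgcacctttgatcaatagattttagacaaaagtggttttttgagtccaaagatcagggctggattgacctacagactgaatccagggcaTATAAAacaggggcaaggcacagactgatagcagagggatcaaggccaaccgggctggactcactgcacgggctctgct
Apoa2: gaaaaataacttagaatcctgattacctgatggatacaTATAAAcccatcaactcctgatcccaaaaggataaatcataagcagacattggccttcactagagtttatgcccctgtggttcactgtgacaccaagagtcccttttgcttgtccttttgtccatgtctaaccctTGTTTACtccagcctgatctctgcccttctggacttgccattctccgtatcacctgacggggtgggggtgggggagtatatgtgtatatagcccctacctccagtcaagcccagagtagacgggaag

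Across the liver-marking genes defined below, 800 of 1087 matched a promoter by symbol, with 1005 windows. The HNF1 letters stood in 6.67% of those windows, against 1.85% of the windows of all genes tested and 2.54% of all 32851 promoters in the table. The HNF4 letters stood in 4.98% of them, against 1.54% of the windows of all genes tested and 1.42% of all promoters. FOXA letters were found in 5.47% of them, against 2.92% and 3.65% in those same backgrounds, and C/EBP letters in 16.4%, against 9.43% and 10.8%. The TATA box was found in 15.6% of the liver-marking windows, against 8.44% of the windows of all genes tested and 13.6% of all promoters. Among the 154 windows of liver-marking genes with a mean of at least 1000 CPM in liver, the shares were 5.84% for HNF1, 4.55% for HNF4, 10.4% for FOXA, 23.4% for C/EBP and 28.6% for the TATA box. All 5 shares were lower in the 470 windows of the liver-depleted genes, at 1.06% for HNF1, 0.638% for HNF4, 2.13% for FOXA, 7.87% for C/EBP and 8.94% for the TATA box. These are shares of windows with matching letters, given without a test, and a match is not a site of binding.

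Most genes differed in level between liver and the other organs. Of 17696 genes tested in 1 fit of the 18 libraries, 5243 (29.6%) were higher and 6316 (35.7%) lower in PBS liver than the mean of the 5 other organs (edgeR quasi-likelihood test, Benjamini-Hochberg adjusted p under 0.05, two-sided), and 6137 were not called. The median log2 fold change over all genes tested was -0.36. This mean is the mean of the 5 organs' log2 levels, so a gene can be higher in liver than the mean and still lower than in 1 organ. The balance depended on scaling, and liver libraries had TMM factors of 0.530 to 0.580, against 0.812 to 1.43 elsewhere. With plain library totals the median moved by -1.0002 on the log2 scale, and 19.1% of the called genes were higher in liver, against 45.4% with TMM. Fold changes below are with TMM scaling and stand against the median of -0.36.

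A stricter rule was used for genes that mark liver. A gene was called liver-marking when it was higher in liver than in each of the 5 organs separately, with an adjusted p under 0.05 and a log2 fold change of at least 2, and when every liver library was above every other library. The rule held for 1087 genes (6.14% of those tested), of which 950 were protein coding. The opposite rule gave 519 liver-depleted genes (2.93%), of which 443 were protein coding. For genes that pass either rule the lack of overlap follows from the rule, and their p-values are no separate support. Of the liver-marking genes 169 had a mean of at least 1000 CPM in liver, 684 at least 100 CPM and 142 less than 10 CPM. Their smallest fold change against any of the 5 organs had a median of 4.64 on the log2 scale, and 171 genes stood at 8 or more. Just inside the limit of 2 were Coasy at 2.01, Gclc at 2.02 and Parp16 at 2.02, and just outside it were Ldhd and Ccdc152, both at 1.99. Together the liver-marking genes took 47.2 to 52.1% of all counts in the liver libraries, against 1.301 to 2.76% in the other 15.

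The 10 liver-marking genes with the highest mean in liver are described first. Alb, the main protein of blood plasma (ENSMUSG00000029368, chr5:90460897-90476602, plus strand in mm10), stood at 136885, 104674 and 106316 CPM in the livers, against 141 to 618 CPM (median 247) in the other 15 libraries. The 2 sets of libraries did not overlap, which the rule requires. The log2 fold change over the mean of the other organs was 8.87 ± 0.29 (SE, adjusted p = 1.1e-12). Alb alone made up 5.89 to 7.25% of all liver counts. Apoe, an apolipoprotein that hepatocytes and macrophages both make (ENSMUSG00000002985, chr7:19696109-19699188), stood at 34940.0, 35431 and 34049 CPM in liver, against 215 to 2185 CPM (median 695) elsewhere. Its fold change was 5.54 ± 0.27 (adjusted p = 1.4e-10), and tumor and lymph node held 1491 ± 861 and 1672 ± 72.0 CPM of it (SD, n = 3 each). C3, the central complement component (chr17:57203970-57228136), had 17781, 18079 and 14769.8 CPM in liver, against 28.6 to 1155 CPM (median 595) elsewhere, with the lowest values in tumor. Selenop, the plasma carrier of selenium (chr15:3268547-3280508), had 14785, 12147 and 11921 CPM in liver, against 169 to 1102 CPM (median 438) elsewhere. C3 and Selenop were thus also found outside liver, with fold changes of 5.45 ± 0.23 and 4.92 ± 0.24 (adjusted p = 1.9e-11 and 1.2e-10).

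The other 6 of these 10 genes were far lower outside liver. Ahsg (fetuin-A, chr16:22891277-22899449) had 19157, 15078 and 13999 CPM in liver, against 17.0 to 102.99 CPM (median 30.6) elsewhere, a log2 fold change of 8.95 ± 0.29 (adjusted p = 8.1e-13). Serpina1a (an alpha-1-antitrypsin, chr12:103853589-103863562) had 14773, 10798 and 9045 CPM in liver, against 12.1 to 74.2 CPM (median 21.3) elsewhere. Gc (chr5:89417522-89457898), whose promoter with the HNF1 letters is printed above, had 13441, 10792 and 9762 CPM in liver, against 15.1 to 71.0 CPM (median 23.2) elsewhere. Apoa2 (chr1:171225054-171226379) had 10488, 9939 and 11576 CPM in liver, against 15.5 to 94.9 CPM (median 26.1) elsewhere, with a coefficient of variation of 7.81% among the livers, against 2.01% for Apoe and 57.4% for Serpina3k. Cyp2e1, a cytochrome P450 that oxidizes ethanol and small solvents (chr7:140763739-140774987), had 14821, 11899.9 and 10212 CPM in liver, against 16.0 to 358 CPM (median 27.7) elsewhere. Its highest values outside liver were in lymph node, at 86.6, 358 and 248.5 CPM in mice 1, 2 and 3. Serpina3k, a serine protease inhibitor of plasma (chr12:104338486-104346144), had 21198, 11858 and 6290.4 CPM in liver, against 9.35 to 68.4 CPM (median 17.0) elsewhere, so that the liver of mouse 1 held 3.37 times the level of mouse 3. Per transcript length, in TPM (transcripts relative to all transcripts of the library) computed here from counts and annotated exon length, Alb led with 61931 ± 6687 TPM, followed by Apoa2 at 24975 ± 2461 and Apoe at 20457 ± 950.0 (SD, n = 3). Hamp, the iron hormone hepcidin, came next with 12381 ± 1364 TPM. Serpina1a and its copies Serpina1b to Serpina1e are nearly identical, so the level of any 1 copy is uncertain, as it is for the Cyp3a, Saa and hemoglobin genes below.

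**Figure D1:**
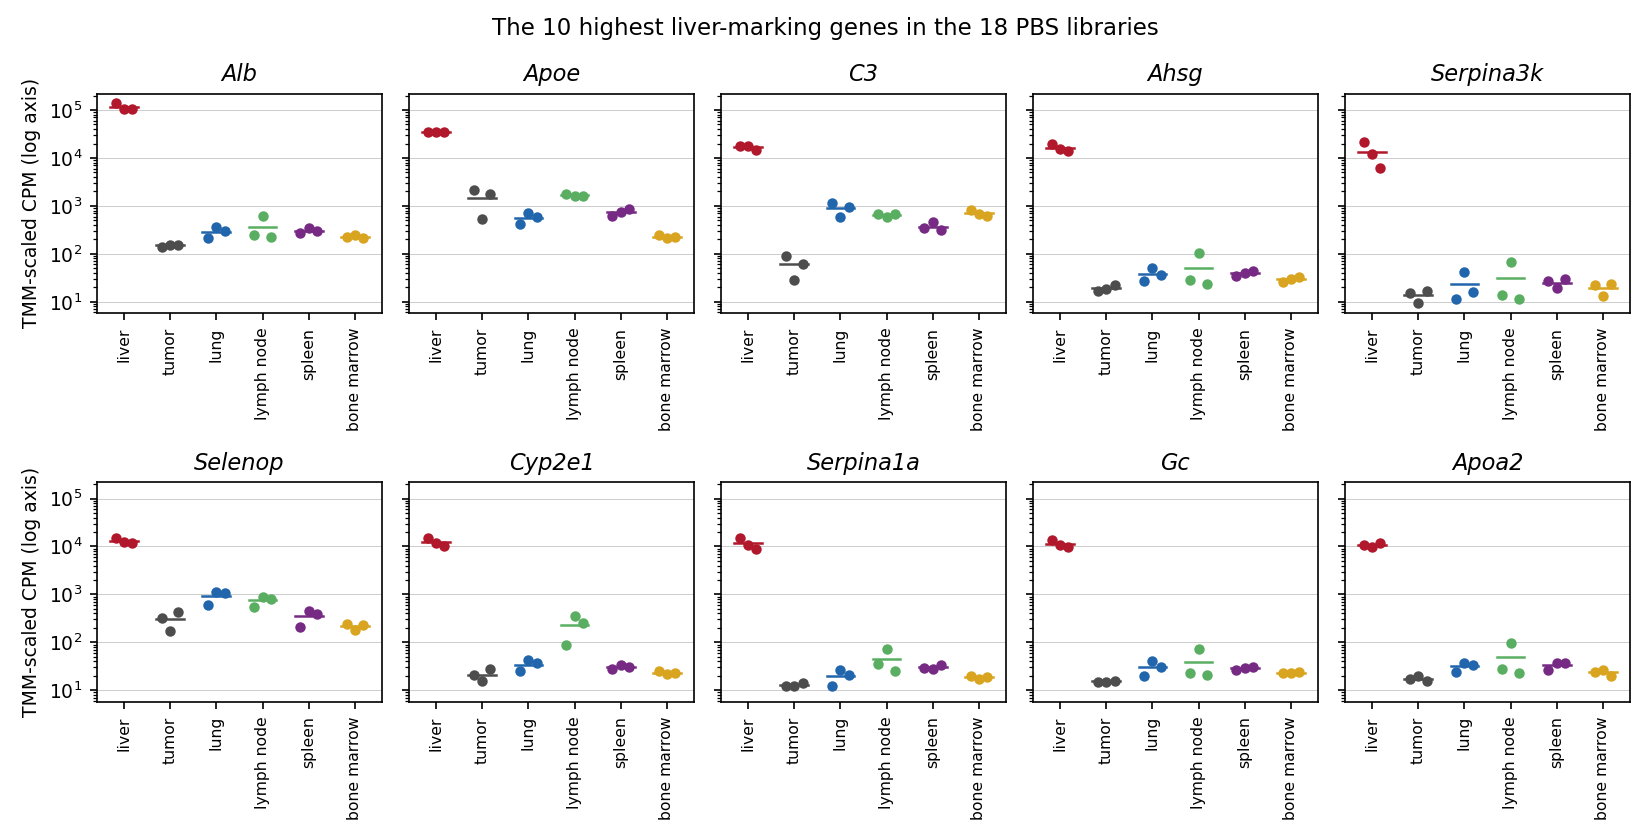
TMM-scaled CPM (log axis) of the 10 liver-marking genes with the highest mean liver level, in PBS liver (left) and the 5 other organs of the same 3 mice. Points are libraries in the order of mice 1, 2 and 3, and lines are means. Every liver point lies above all others, which the rule requires. Apoe, C3 and Selenop are also found outside liver. In the other 7 panels the lymph node of mouse 2 is the highest point outside liver.

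Another set of genes, which shared Serpina3k with the set above, was most restricted to liver, judged by the smallest of the 5 fold changes. Only protein-coding genes with at least 10 CPM in liver were ranked, and clone names and Mup copies were left out. Mug1, a murinoglobulin (a plasma protease inhibitor of rodents), had 3600.5, 1444 and 1202 CPM in liver, against 1.80 to 8.55 CPM elsewhere. Its relative Mug2 had 49.0, 26.3 and 26.7 CPM in liver, against 0 to 0.133 CPM elsewhere. Both were far lower in every library outside liver. Inhbc, which encodes the activin C subunit, had 104.02, 90.4 and 111 CPM in liver, against 0 to 0.376 CPM (median 0.0789) elsewhere, and its smallest log2 fold change was 9.0002. Urad, an enzyme of uric acid breakdown, had 57.8, 43.2 and 40.6 CPM in liver, against 0 to 0.201 CPM (median 0.0668) elsewhere. C8b, a chain of the complement membrane attack complex, had 283, 152 and 124 CPM in liver, against 0.0576 to 1.11 CPM elsewhere. Onecut1, a liver transcription factor also known as HNF6, had 49.3, 32.5 and 32.9 CPM in liver, against 0 to 0.302 CPM elsewhere, with a median of 0. Cyp2c54, a cytochrome P450, had 1131, 733 and 553 CPM in liver, against 0.969 to 3.42 CPM elsewhere. The smallest fold changes were 9.22 for Mug2, 8.89 for Mug1, 8.77 for Urad, 8.78 for C8b, 8.72 for Onecut1, 8.72 for Cyp2c54 and 8.86 for Serpina3k. The adjusted p against the mean of the other organs lay between 2.9e-14 (Cyp2c54) and 8.8e-10 (Onecut1) for these. The genes were picked by fold changes of the same fit, so these p-values add no separate support. Where libraries outside liver were at 0 counts, as for Mug2 and Onecut1, the fitted fold change depends on the prior count of the fit.

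The tissue label was checked against hepatocyte markers first, and all 10 hepatocyte markers were liver-marking, with a median log2 fold change of 8.84. Genes of plasma proteins were higher in liver with few exceptions. All 26 transport proteins and protease inhibitors of plasma were higher, 25 of them liver-marking, with a median log2 fold change of 8.75. Their summed level was 231293 to 318866 CPM in liver, against 766 to 32867 CPM in the other libraries. The exception to the rule was Trf, the iron carrier transferrin, at 34634, 26710.1 and 25319 CPM in liver. Tumors of the same mice held 4970.5, 15298 and 32514 CPM of Trf, so that the tumor of mouse 3 reached the level of liver, while bone marrow held 166, 161 and 179 CPM. Against the mean of the other organs Trf was higher in liver, by 5.42 ± 0.34 (adjusted p = 2.6e-09), and with the 15 libraries as 1 group this call was lost (3.56, adjusted p = 0.062). All 18 apolipoproteins and lipoprotein assembly genes were higher and liver-marking, with a median of 8.50. Among them Apoa1, the main protein of high-density lipoprotein, had 14554, 9907 and 7063 CPM in liver, against 8.61 to 75.8 CPM elsewhere (9.07 ± 0.37, adjusted p = 1.4e-11).

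Of 25 coagulation and fibrinolysis genes 22 were higher in liver, 21 of them liver-marking, and the median was 8.65. The 3 fibrinogen chains Fgb, Fgg and Fga had 9698 ± 2464, 7860.4 ± 2175 and 7178 ± 1755 CPM in liver (SD, n = 3), with log2 fold changes of 8.90 ± 0.28, 8.77 ± 0.28 and 8.88 ± 0.27 (adjusted p = 6.8e-13, 7.5e-13 and 3.9e-13). The 3 genes lower in liver are known as products of other cells. F3 (tissue factor) had 6.54, 8.34 and 6.80 CPM in liver, against 117, 80.1 and 127 CPM in tumor. Vwf (von Willebrand factor of endothelium and platelets) had 3.19, 5.06 and 4.95 CPM in liver, against 577, 223 and 449 CPM in lung. F13a1 (the factor XIII subunit of macrophages and platelets) had 0.798, 0.820 and 1.04 CPM in liver, against 274, 303 and 229 CPM in bone marrow, and was liver-depleted. Their fold changes against the mean were -0.97 ± 0.26, -3.15 ± 0.28 and -4.84 ± 0.78 (adjusted p = 0.0046, 1.3e-07 and 7.2e-05).

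Complement genes were mostly higher in liver, with 22 of 24 called higher, 16 liver-marking and a median of 5.96. C4b and Cfb (factor B) had 2941 ± 649 and 2760.5 ± 304 CPM in liver, against 561 ± 202 and 60.9 ± 4.12 CPM in lung (SD, n = 3 each), and were higher than the mean of the other organs by 4.56 ± 0.39 and 6.17 ± 0.18 (adjusted p = 1.1e-07 and 2.3e-13). Cfd (factor D, or adipsin), which is known as an adipocyte product, had 0, 0 and 0.230 CPM in liver, against 380.1, 1790.3 and 935 CPM in lymph node, and was the complement gene called lower (-7.90 ± 1.55, adjusted p = 4.4e-04). The livers held 0 to 2 counts of Cfd, so its fitted value depends on the prior count. Cfp (properdin), known from myeloid cells, had 63.3, 80.9 and 79.3 CPM in liver, against 1.94 to 205 CPM (median 63.1) elsewhere, and was not called.

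Of 22 acute phase genes, which liver raises in inflammation, 20 were higher, 15 liver-marking and the median was 5.79. The highest were Itih4 at 4423 ± 662 CPM in liver, Hamp at 4033 ± 299 CPM and Hp (haptoglobin) at 4012 ± 1201 CPM, with fold changes of 8.36 ± 0.26, 8.54 ± 0.23 and 4.79 ± 0.33 (adjusted p = 4.5e-13, 1.3e-13 and 9.3e-09). Hp also stood at 1029.8, 820.2 and 832 CPM in lung and 747, 637 and 566 CPM in bone marrow. Saa1, a serum amyloid A gene named here after its values were seen, had 53.8, 138 and 74.8 CPM in liver, against 0.0751 to 3.22 CPM elsewhere. Lcn2 (lipocalin 2), made by hepatocytes in inflammation and by neutrophils and epithelia, was the acute phase gene called lower. It had 63.0, 104.9 and 46.0 CPM in liver, against 3552, 3799 and 4130.0 CPM in tumor and 2622, 2019.9 and 1966 CPM in bone marrow (-2.23 ± 0.54, adjusted p = 0.0022). Lymph node held 84.1, 72.7 and 91.4 CPM and spleen 29.9, 59.5 and 43.2 CPM of it, which overlapped with the livers. Il1rn, the interleukin 1 receptor antagonist, had 8.30, 7.52 and 8.53 CPM in liver, against 0.912 to 44.5 CPM (median 4.54) elsewhere, and was not called.

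**Figure D2:**
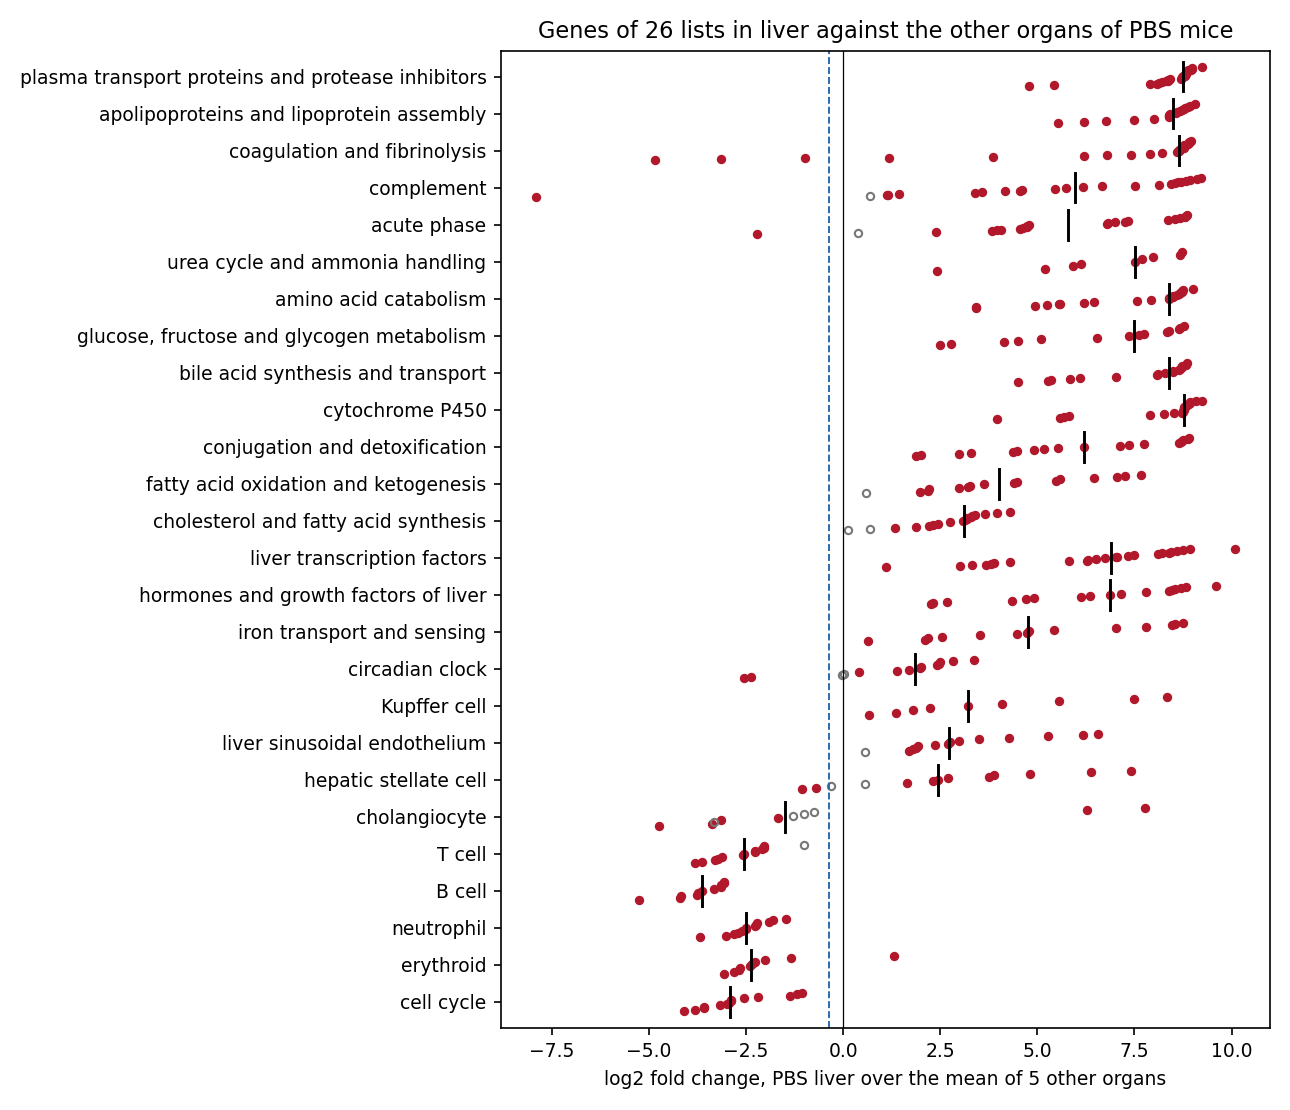
Log2 fold change of PBS liver over the mean of the 5 other organs for the tested genes of 26 lists. Filled points passed an adjusted p of 0.05, open points did not, black bars are list medians and the dashed line is the median of all genes tested (-0.36). Secreted protein and metabolic lists have medians between 3.12 and 8.77, and the immune, erythroid and cell cycle lists have medians between -3.62 and -2.36.

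Genes of nitrogen metabolism marked liver as a group. All 9 genes of urea synthesis and ammonia handling were higher, 8 of them liver-marking, with a median of 7.51. Cps1, the first enzyme of the cycle, had 5582, 5435 and 4003 CPM in liver, against 6.21 to 27.3 CPM (median 11.3) elsewhere (8.73 ± 0.26, adjusted p = 3.9e-13). Ass1 had 4244 ± 467 CPM in liver and 142 ± 73.6 CPM in tumor, and Arg1, the arginase that forms urea, had 2155 ± 158 CPM in liver and 99.99 ± 88.5 CPM in tumor (SD, n = 3). Both were still higher than the mean of the other organs, by 6.12 ± 0.20 and 7.51 ± 0.35 (adjusted p = 7.3e-13 and 8.5e-11). All 22 amino acid catabolism genes were higher and liver-marking, with a median of 8.40. Mat1a, which makes S-adenosylmethionine, stood at 6398 ± 914 CPM in liver, Hpd of tyrosine breakdown at 3771 ± 566 CPM and Bhmt of methionine recovery at 2703 ± 559.9 CPM, against at most 48.6, 28.1 and 18.5 CPM elsewhere.

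All 14 genes of glucose, fructose and glycogen metabolism were higher, 11 liver-marking, with a median of 7.49. Fbp1, a gluconeogenic enzyme, had 1484, 1496 and 1683 CPM in liver, against 2.52 to 9.05 CPM (median 4.58) elsewhere (8.39 ± 0.16, adjusted p = 1.7e-14). Pck1, the first committed enzyme of gluconeogenesis, had 3272, 1939 and 1546 CPM in liver. Lymph node held 149, 619 and 274 CPM of Pck1 and the remaining 12 libraries at most 16.1 CPM. The 9 adipocyte markers summed to 48.0 to 56.8 CPM in liver, against 7544 ± 6304 CPM in lymph node (SD, n = 3) and 18.02 CPM in the lowest library. Their part in the lymph node level of Pck1 was not tested. G6pc, whose promoter is printed above for its HNF1 and TATA letters, had 132, 45.1 and 84.2 CPM in liver, against 0.0720 to 0.523 CPM (median 0.201) elsewhere (8.67 ± 0.26, adjusted p = 4.1e-13).

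All 18 genes of bile acid synthesis and transport were higher, 17 liver-marking, with a median of 8.38. The uptake transporters Slco1b2 and Slco1a1 had 2188 ± 367 and 1114 ± 263 CPM in liver (SD, n = 3), and Slc27a5, which activates bile acids for conjugation, had 1576 ± 233 CPM. Their fold changes were 8.67 ± 0.30, 8.71 ± 0.25 and 8.85 ± 0.25 (adjusted p = 1.6e-12, 1.9e-13 and 2.3e-13). Outside liver the summed level of the list was 50.4 to 208 CPM, against 9391 to 11636 CPM in liver.

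All 21 cytochrome P450 genes of the list, with their reductase Por, were higher, 17 liver-marking, with a median of 8.77. After Cyp2e1 the highest were Cyp3a41a at 7538, 9270.3 and 6907 CPM and Cyp2c29 at 2694, 2783 and 2811 CPM in liver, with fold changes of 8.74 ± 0.26 and 8.79 ± 0.20 (adjusted p = 3.4e-13 and 3.5e-14). Cyp2f2, named here after its values were seen, was shared with lung, where it is known as an enzyme of club cells. It had 956, 878 and 915 CPM in liver, against 2774, 1075 and 1908 CPM in lung and at most 14.1 CPM in the other 12 libraries. Liver was called higher than the mean of the 5 organs for Cyp2f2 (5.59 ± 0.27, adjusted p = 9.4e-11), while the contrast with lung alone was -1.12 ± 0.42 (adjusted p = 0.031). With the 15 libraries as 1 group Cyp2f2 was not called (1.39, adjusted p = 0.57).

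All 19 conjugation and detoxification genes were higher, 14 liver-marking, with a median of 6.20. Ces1c, a plasma carboxylesterase of rodents, had 7305 ± 444 CPM in liver, Aldh2, the mitochondrial aldehyde dehydrogenase, 3693 ± 488 CPM and Adh1, an alcohol dehydrogenase, 3546 ± 238 CPM (SD, n = 3). Their fold changes were 8.64 ± 0.23, 3.29 ± 0.21 and 7.75 ± 0.14 (adjusted p = 9.8e-14, 3.7e-09 and 1.1e-14). Aldh2, with the smallest fold of these, also stood at 633 ± 69.7 CPM in bone marrow.

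Of 16 genes of fatty acid oxidation and ketogenesis 15 were higher and 10 liver-marking, with a median of 4.01. Cat, the catalase of peroxisomes, had 3817 ± 82.0 CPM in liver (SD, n = 3), with a fold change of 4.48 ± 0.21 (adjusted p = 7.1e-11). Pdk4, a starvation-induced kinase, was not called, at 7.34, 9.02 and 9.22 CPM in liver, against 56.5, 315 and 113 CPM in lymph node. Of 18 genes of cholesterol and fatty acid synthesis 16 were higher and 9 liver-marking, with a median of 3.12. Scd1, a desaturase, had 2935, 2293 and 2327 CPM in liver, against 2435, 9528 and 11526 CPM in lymph node. Fasn, the fatty acid synthase, had 557, 1149.8 and 1070.5 CPM in liver, against 821, 4979 and 5238 CPM in lymph node. Lymph node of mice 2 and 3 was thus above every liver for both genes. Against the mean of the other organs both were higher in liver (2.43 ± 0.38 and 1.87 ± 0.30, adjusted p = 5.4e-05 and 8.1e-05), and both calls were lost with the 15 libraries as 1 group (0.90 and 0.36, adjusted p = 0.62 and 0.84). Insig1, a sterol sensor, had 840.3 ± 159 CPM in liver (4.29 ± 0.24, adjusted p = 6.3e-10). Acly and Srebf2 were not called, at 348 ± 46.3 and 125 ± 12.8 CPM in liver (SD, n = 3).

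Genes known to differ between male and female mouse liver were examined because the labels do not give the sex. All 12 female-biased genes were higher in liver and liver-marking, with a summed level of 24449 to 31606 CPM in liver, against 38.8 to 193 CPM elsewhere. The highest were A1bg at 7097, 10439.6 and 11978 CPM, Cyp3a41a as above and the sulfotransferase Sult3a1 at 2434, 2823 and 2236 CPM in liver. Of 8 male-biased genes 5 could be tested, all were higher in liver and 3 were liver-marking, with a summed level of 911 to 1484 CPM in liver. Most of that sum was Slco1a1 at 1311, 1216 and 815 CPM, followed by Cyp7b1 at 142, 105.1 and 69.7 CPM, and Elovl3 had 13.1, 12.2 and 14.3 CPM. The male-biased genes Cyp4a12a, Cyp4a12b and Hsd3b5 were filtered out as too low, with at most 0, 1 and 11 counts in any liver library. All 8 major urinary protein genes that were tested were liver-marking, with a median log2 fold change of 9.20. Mup3 led at 1671, 924 and 1596 CPM in liver, against 1.13 to 13.98 CPM elsewhere (8.80 ± 0.23, adjusted p = 7.9e-14), and these genes are near-identical copies whose separate levels are uncertain.

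The transcription factors known for liver were all higher there, 24 of 24, of which 17 were liver-marking, with a median of 6.88. Hnf4a, a nuclear receptor that directs the hepatocyte program, had 800.1, 1013 and 1063 CPM in liver, against 1.37 to 7.14 CPM (median 2.16) elsewhere (8.6003 ± 0.20, adjusted p = 3.3e-14). Cebpa and Rxra, which other organs also express, had 859 ± 92.4 and 711 ± 75.2 CPM in liver and fold changes of 3.87 ± 0.22 and 3.80 ± 0.14 (adjusted p = 1.0e-09 and 3.2e-12). Foxa2, named here after its values were seen, was shared with lung, at 81.5, 60.2 and 53.9 CPM in liver, against 71.7, 58.5 and 59.5 CPM in lung and at most 1.01 CPM in the other 12 libraries. The livers and lungs overlapped for Foxa2. The contrast with lung was 0.04 ± 0.33 (adjusted p = 0.93), and that with the mean was 6.50 ± 0.25 (adjusted p = 6.8e-12). With the 15 libraries as 1 group Foxa2 was not called (2.33, adjusted p = 0.29).

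Of the 17 tested hormones and growth factors of liver all were higher and 12 liver-marking, with a median of 6.87. The highest were Selenop, Hamp and the insulin-like growth factor binding protein Igfbp4, the last at 4083, 3835 and 3395 CPM in liver, against 16.9 to 284 CPM (median 185) elsewhere (4.72 ± 0.34, adjusted p = 1.2e-08). All 14 iron genes were higher and 7 liver-marking, with a median of 4.77. Hamp, the hormone that limits iron release, had 3786, 3949 and 4365 CPM in liver, against 6.56 to 35.6 CPM (median 9.59) elsewhere. Hpx, the heme carrier hemopexin, had 7931, 8991 and 6373 CPM in liver, against 7.18 to 61.6 CPM elsewhere (8.76 ± 0.31, adjusted p = 3.1e-12). Ftl1, the ferritin light chain, was found in every organ, at 7726, 7329.8 and 9021 CPM in liver, against 1132 to 3130.2 CPM (median 1589.6) elsewhere (2.10 ± 0.19, adjusted p = 1.6e-07).

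Genes known from the zones of the liver lobule were higher in liver for both ends of the lobule. Of 11 pericentral genes 10 were higher and 6 liver-marking, with a median of 4.53, and of 14 periportal genes 13 were higher and 12 liver-marking, with a median of 7.56. The pericentral P450 gene Cyp2a5 had 1555, 2182.3 and 1601 CPM in liver, and Oat, an ornithine aminotransferase, had 823, 1038 and 1087 CPM. The periportal Pigr, the receptor that carries immunoglobulin into bile, had 4028, 3613 and 3184 CPM in liver. Their fold changes were 7.90 ± 0.35, 3.43 ± 0.12 and 7.15 ± 0.47 (adjusted p = 3.5e-11, 1.9e-12 and 4.2e-09). The pericentral Wnt target Axin2 was not called, at 4.15, 9.71 and 6.68 CPM in liver, against 0.285 to 23.3 CPM (median 7.11) elsewhere, and neither was the periportal Cdh1, at 53.9, 47.7 and 47.9 CPM in liver, against 499.7, 330.4 and 330.4 CPM in tumor. Whole-tissue data carry no position within the lobule.

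Clock genes were compared without the time of day, which the labels do not give. Of 14 genes 10 were higher and 2 lower, with a median of 1.84, and none was liver-marking. With plain library totals the numbers were 7 higher and 5 lower. The output factors Dbp and Tef and the repressor Nr1d2 had 349.9 ± 44.4, 337 ± 42.2 and 175 ± 25.8 CPM in liver (SD, n = 3), with fold changes of 3.36 ± 0.31, 2.47 ± 0.31 and 1.97 ± 0.18 (adjusted p = 2.3e-07, 5.5e-06 and 1.9e-07). Arntl (BMAL1), an activator of the clock, was lower, at 1.12, 2.598 and 2.19 CPM in liver, against 3.40 to 19.2 CPM (median 14.2) elsewhere (-2.55 ± 0.34, adjusted p = 1.2e-05). Npas2 was the other gene called lower, at 0.160, 0 and 0.346 CPM in liver, against 0 to 7.29 CPM (median 0.735) elsewhere. Per1 and Cry1 were not called, at 31.4 ± 14.97 and 15.05 ± 5.38 CPM in liver (SD, n = 3).

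Kupffer cell markers were higher in liver for all 9 genes, of which 4 were liver-marking, with a median of 3.22 (7 of 9 were called higher with plain library totals). Clec4f, a lectin known from mouse Kupffer cells, had 428, 487 and 495 CPM in liver, against 0.570 to 4.43 CPM (median 1.37) elsewhere (8.34 ± 0.24, adjusted p = 2.4e-13). Cd5l, a secreted macrophage protein, had 297, 402 and 397 CPM in liver, against 12.9, 66.1 and 60.6 CPM in spleen, its highest other organ (5.55 ± 0.41, adjusted p = 1.7e-08). Vsig4, a complement receptor named here after its values were seen, had 114, 122 and 127 CPM in liver, against 0.131 to 4.01 CPM (median 0.504) elsewhere. Genes of macrophages in general were less restricted. Csf1r, the receptor for macrophage growth factor, had 149, 156 and 171 CPM in liver, against 132, 209.9 and 265 CPM in spleen, and its call against the mean (0.66 ± 0.23, adjusted p = 0.023) became -0.34 with library totals. The scavenger receptor Marco, also named after its values were seen, was lower in each liver than in every spleen, at 30.5, 35.96 and 63.7 CPM in liver, against 135, 193 and 246 CPM in spleen.

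Sinusoidal endothelial markers were higher in 13 of 14 genes (11 with library totals), with a median of 2.73, and 2 were liver-marking. The lectin Clec4g had 192, 171 and 162 CPM in liver, against 11.7, 29.2 and 30.1 CPM in spleen (6.55 ± 0.20, adjusted p = 5.1e-13). Mrc1 (mannose receptor) and Dnase1l3 had 131 ± 18.5 and 127 ± 7.28 CPM in liver, against 54.9 ± 23.4 and 72.4 ± 30.8 CPM in spleen (SD, n = 3 each). Their fold changes against the mean were 1.81 ± 0.41 and 4.28 ± 0.16 (adjusted p = 0.0014 and 4.1e-12). Mrc1 lost its call with library totals (0.81, adjusted p = 0.085) and Dnase1l3 with the 15 libraries as 1 group (2.56, adjusted p = 0.094). Lyve1 was not called, at 5.58, 9.30 and 14.9 CPM in liver, against 144, 78.7 and 102.7 CPM in lung.

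Stellate cell markers were mixed, with 9 of 13 genes higher, 2 lower, 2 not called and a median of 2.45. Dcn (decorin) had 242, 189 and 178 CPM in liver, against 370.1, 663 and 482 CPM in lymph node, Ecm1 had 118, 105.8 and 112 CPM and Reln (reelin) had 61.4, 58.8 and 48.7 CPM in liver. Ecm1 and Reln were higher than the mean of the other organs by 2.45 ± 0.45 and 3.88 ± 0.34 (adjusted p = 2.5e-04 and 1.2e-07). Pdgfrb, a growth factor receptor, was lower, at 6.86, 9.02 and 7.14 CPM in liver, against 45.3, 25.7 and 42.4 CPM in lung. Des (desmin) was also lower, at 6.70, 6.97 and 8.41 CPM in liver, against 113, 79.9 and 88.3 CPM in lung. Bambi was among those not called, at 7.58 ± 2.82 CPM in liver (SD, n = 3). The calls of Dcn and Npas2 were lost without the liver of any 1 mouse, those of Csf1r without mouse 2 (0.49) or 3 (0.67), of Pdgfrb without mouse 1 (-0.80) or 3 (-0.95), and of Des without mouse 1 (-0.63) or 2 (-0.68). Without 1 liver Dcn lay between 1.45 and 1.74 and Npas2 between -3.40 and -2.01.

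Bile duct markers were at low levels. Of 10 tested genes 2 were higher, 4 lower and 4 not called, with a median of -1.48, and their summed level was 56.4 to 77.4 CPM in liver. The shares over all genes tested were 29.6% higher and 35.7% lower, so these counts are not read as a result about bile duct cells. Spp1 (osteopontin) had 28.6, 34.3 and 17.7 CPM in liver, against 6967, 99.5 and 849 CPM in tumor. Pkhd1, the fibrocystin gene, was among the genes called higher, at 8.62, 7.52 and 7.49 CPM in liver, against 0 to 0.316 CPM (median 0) elsewhere (7.76 ± 0.50, adjusted p = 1.6e-07).

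**Figure D3:**
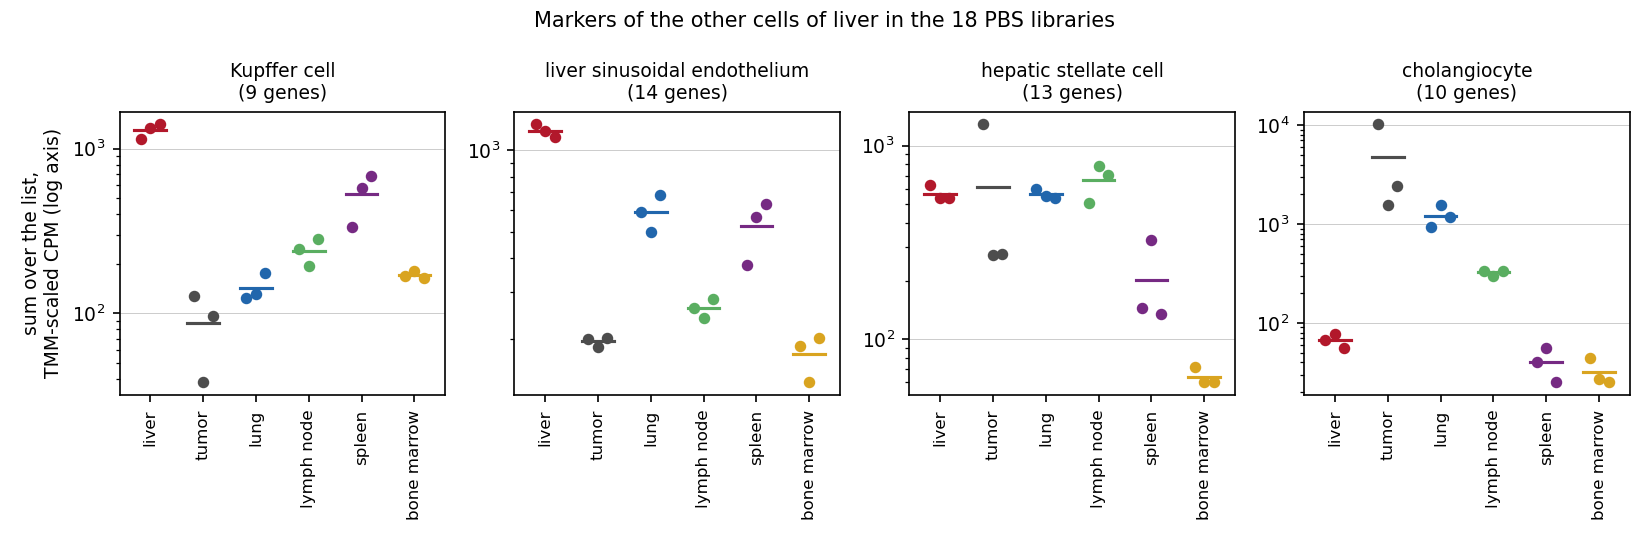
Summed TMM-scaled CPM (log axis) of the tested markers of Kupffer cells, sinusoidal endothelium, stellate cells and bile duct cells in PBS liver (left) and the 5 other organs. Points are libraries and lines are means of 3. Kupffer and sinusoidal sums are highest in the 3 livers, stellate sums of 534 to 623 CPM in liver overlap those of tumor, lung and lymph node, and bile duct sums are far lower in liver than in tumor.

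Genes of blood-forming and immune cells were mostly lower in liver than the mean of the 5 other organs, though not than each organ. All 11 B cell genes, all 13 neutrophil genes, all 14 cell cycle genes, all 8 megakaryocyte genes and 12 of 13 T cell genes were lower than that mean, with medians of -3.62, -2.49, -2.91, -3.002 and -2.55. Summed cell cycle genes stood at 146, 118 and 337 CPM in the livers, against 121 to 5157 CPM (median 776) elsewhere. Lung held 180 ± 53.1 CPM and lymph node 357 ± 120 CPM of them (SD, n = 3 each), so the liver of mouse 3 was above the lung mean. The immunoglobulin co-receptor Cd79a had 2.39, 4.38 and 3.69 CPM in liver, against 530.1, 756 and 816 CPM in spleen (-3.74 ± 0.38, adjusted p = 7.4e-07). Summed T cell markers stood at 29.4 to 39.5 CPM in liver, against 18.6 to 2334 CPM in the other libraries, with the lowest values in tumor. Summed neutrophil markers stood at 102.1 to 257 CPM in liver and B cell markers at 27.4 to 33.0 CPM. Of 10 tested erythroid genes 9 were lower than the mean of the other organs, with a median of -2.36. Their sum was 1959 to 2140 CPM in liver, above the means of tumor (520 ± 123 CPM) and lymph node (1286 ± 585 CPM). It was below the means of lung (28800 ± 24265 CPM), spleen (69919 ± 46972 CPM) and bone marrow (161641 ± 9769 CPM, SD, n = 3 each). Klf1, an erythroid transcription factor named here after its values were seen, was called higher against the mean (1.303 ± 0.34, adjusted p = 0.0038). It had 16.9, 12.7 and 9.22 CPM in liver, against 119 ± 72.7 CPM in spleen and 281 ± 49.4 CPM in bone marrow (SD, n = 3 each), and its call was lost without the liver of mouse 1 (0.79) and with library totals (0.27). The hemoglobin gene Hbb-bs had 832, 862 and 792 CPM in liver, against 50367, 54411 and 58232 CPM in bone marrow, and its call was lost without the liver of mouse 2 (-2.078) or 3 (-2.077). Of 11 genes of natural killer and cytotoxic cells 8 were lower, and of 9 dendritic cell genes 7 were lower. Of 8 plasma cell genes 4 were lower and 2 were higher, Sdc1 and Xbp1, which hepatocytes are also known to express. With library totals 1 was higher and 5 were lower, and Xbp1 lost its call (0.32, adjusted p = 0.058), as it did with the 15 libraries as 1 group (0.95, adjusted p = 0.22). Of 12 monocyte and macrophage genes 6 were lower, 2 higher and 4 not called, and with library totals none was higher. Since 35.7% of all genes tested were lower and 29.6% higher, the plasma cell and monocyte counts are not read as results about those cells. Erbb2, the mouse counterpart of the transgene, had 2.23, 3.69 and 2.995 CPM in liver, against 118, 68.0 and 77.1 CPM in tumor.

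Markers of other tissues that liver samples could hold were examined as well. Of all genes tested 35.7% were lower and 29.6% higher in liver, and list counts near these shares are not read as results about a tissue. Of 8 exocrine pancreas genes 1 was tested, Cela1, which was called higher, at 37.5, 34.0 and 47.5 CPM in liver. The others were filtered out as too low. Prss2, Cpa1, Cpb1, Pnlip, Amy2a5 and Ctrb1 had 0 counts in all 3 livers, and Cela2a had at most 4. The 4 tested skeletal muscle genes summed to 0.479 to 0.691 CPM in liver. Of 9 adipocyte genes 6 were lower and Pparg was higher, and Plin1 and Lep had 0 counts in all 3 livers. The call of Pparg (1.01 ± 0.34, adjusted p = 0.017) was lost without the liver of mouse 1 (0.70) or 3 (0.97). Of 10 lung epithelial genes 4 were lower and Hopx was higher. Sftpc, the surfactant gene of lung, had 24.7, 20.5 and 51.7 CPM in liver, against 9575, 22007 and 15534 CPM in lung. Of 12 mammary genes 5 were lower and 2 higher, namely the keratins Krt8 and Krt18, which hepatocytes are known to express, and the milk protein Csn3 had 11.01, 35.4 and 24.3 CPM, against 8232 ± 1856 CPM in tumor (SD, n = 3). Of 10 mesenchymal and matrix genes 6 were lower and Fn1, the plasma fibronectin gene, was liver-marking. Of 5 tested fetal liver genes 1 was lower and Afp (alpha-fetoprotein) was higher. Afp had 3.03, 1.09 and 1.73 CPM in liver, against 0 to 1.44 CPM elsewhere.

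The genes most depleted from liver, with at least 10 CPM on average elsewhere, were named by the size of the change. Svep1, an extracellular matrix protein, had 0 counts in all 3 livers, against 0.228 to 30.6 CPM (median 14.6) elsewhere. Asns, which makes asparagine, had 0.160, 0.547 and 0.806 CPM in liver, against 8.70 to 80.5 CPM (median 25.4) elsewhere (-5.97 ± 0.39, adjusted p = 4.6e-09). Acss1, a mitochondrial acetyl-CoA synthetase, had 1.91, 0.273 and 1.73 CPM in liver, against 30.4 to 99.2 CPM (median 79.8) elsewhere (-5.80 ± 0.52, adjusted p = 1.7e-07). All 3 were far lower in liver. Rgcc had 0.160, 0.273 and 0.346 CPM in liver, against 1.79 to 153 CPM elsewhere (-6.74 ± 0.81, adjusted p = 4.1e-06). Prkar2b, a regulatory subunit of protein kinase A, had 0.479, 1.78 and 1.04 CPM in liver, against 14.2 to 410.0 CPM elsewhere (-6.40 ± 0.60, adjusted p = 3.0e-07). Slc7a6, an amino acid transporter, had 0.957, 0.410 and 0.115 CPM in liver, against 7.57 to 24.0 CPM elsewhere (-4.99 ± 0.44, adjusted p = 1.6e-07). Galnt12, which starts O-linked glycans, had 0, 0.273 and 0.115 CPM in liver, against 3.54 to 29.9 CPM elsewhere. The adipocyte hormone Adipoq had 0.160, 0 and 0.115 CPM in liver, against 0.399 to 668 CPM elsewhere. Of the 519 liver-depleted genes 344 had a mean under 1 CPM in liver and 77 had no count in any of the 3 livers. For the genes at 0 to 3 counts in the livers, among them Svep1, Galnt12, Rgcc and Adipoq, the fitted fold change depends on the prior count.

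Liver-marking genes were not wholly absent from the other organs. The 169 genes with at least 1000 CPM in liver stood at a median of 0.165% of the liver level in tumor, 0.334% in lung, 0.438% in lymph node, 0.292% in spleen and 0.225% in bone marrow. The lymph node value rests on the library of mouse 2, since the medians by library were 0.265, 0.832 and 0.277% in the lymph nodes of mice 1, 2 and 3, so that those of mice 1 and 3 were below all 3 spleens. With plain library totals the medians by library were 0.324 to 1.22%. By library the medians ran from 0.154 to 0.832%, and the highest was the lymph node of mouse 2, the library with the high mitochondrial share. For 99 of the 169 genes no organ reached 1% of liver, for 32 the highest organ lay between 1 and 5%, and for 38 it was above 5%. Among those 38 were Hp in lung and bone marrow, Gstm1 and C4b in lung, Pck1 in lymph node, and Lamp2, a lysosome gene, at 24.7% of liver in tumor. Lymph node had the highest mean outside liver for 439 of the 1087 genes. Without the lymph node library of mouse 2 that number was 182, and lung then led with 380 genes. Whether transcripts at these low levels were made in those organs was not tested.

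**Figure D4:**
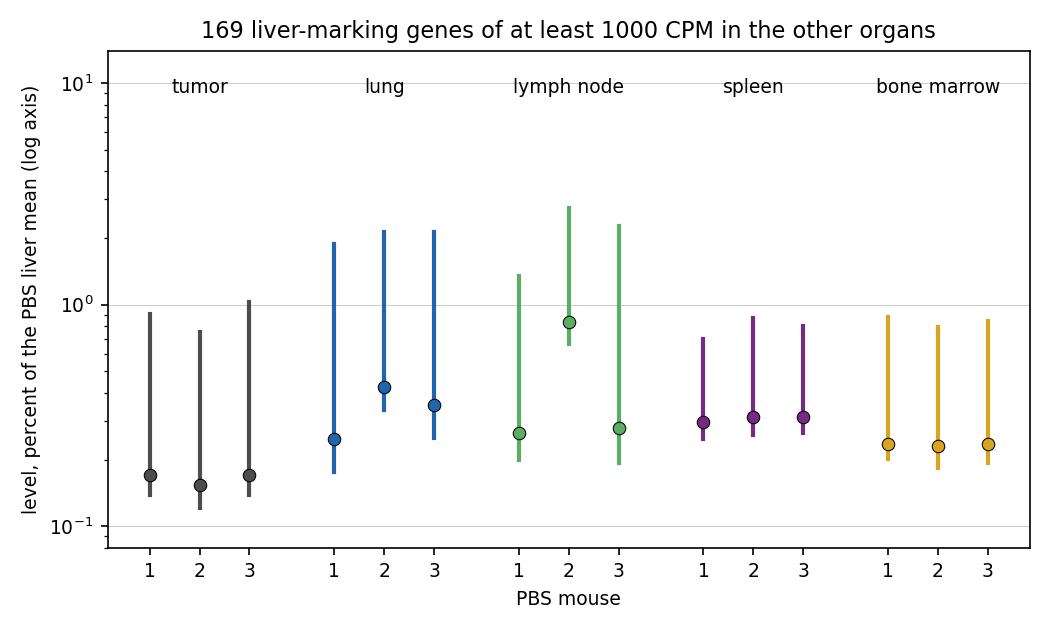
Level of the 169 liver-marking genes of at least 1000 CPM in each library outside liver, as a percent of the mean of the 3 PBS livers (log axis), by organ and mouse. Points are medians over genes and bars span the quartiles. Medians lie between 0.154 and 0.832%, and the lymph node of mouse 2 is highest.

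Variation among the 3 livers was described for genes with a liver mean of at least 10 CPM. Among the 945 liver-marking genes of this kind the ratio of the highest to the lowest liver had a median of 1.27. It was 1.25 over all 9111 genes above that limit, which include the 945. The coefficient of variation had a median of 12.4% in those liver-marking genes, against 11.5% in the 9111. The 2 sets were not matched for level, so genes of equal abundance were not compared. The steadiest were Gstt1, a glutathione transferase, at 509, 507 and 509 CPM, Chchd10, a mitochondrial protein, at 817, 823 and 823 CPM and Qprt of NAD synthesis at 275, 275 and 277 CPM. The ratio was above 2 for 77 genes and above 4 for 8. The metal-binding metallothioneins Mt2 and Mt1, which stress, zinc and fasting are known to induce, were among the most variable. Mt2 had 1016, 147 and 55.8 CPM and Mt1 had 1419, 493 and 282 CPM. Mouse 1 was highest for both, and also for Igfbp1, a fasting-responsive binding protein, at 25.8, 7.93 and 7.03 CPM and for B3galt1 at 73.9, 23.1 and 24.7 CPM. Cyp17a1, a steroid-synthesizing P450, was highest in mouse 2 at 6.54, 33.9 and 13.9 CPM, and Cyp26a1, which degrades retinoic acid, was highest in mouse 3 at 37.8, 26.5 and 93.2 CPM. The fold change of Mt2 over the mean of the other organs was 4.72 ± 0.59 (adjusted p = 5.9e-06). With TMM scaling, mouse 1 held the highest liver value for 468 of the 945 genes, mouse 2 for 271 and mouse 3 for 206. Matching counts over the 9111 genes are not given here. For the most abundant genes the order of the livers depended on scaling. With TMM the 169 genes of at least 1000 CPM stood at medians of 107.351, 101.795 and 91.041% of the liver mean. Under plain library totals these medians were 102.454, 102.923 and 95.015%, so that mouse 1 no longer led. Summed cell cycle genes were 337 CPM in the liver of mouse 3, against 146 and 118 CPM in mice 1 and 2, and summed neutrophil genes were 257 CPM in mouse 2, against 124 and 102.1 CPM in mice 1 and 3. The part of these in the differences between livers was not tested.

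The BP mice gave a second set of 18 libraries in which to look for the same genes, although they differ from PBS mice in treatment as well as in animal. The same rule called 1119 of 17743 genes liver-marking there (6.31%). Of the 1087 liver-marking genes of PBS mice 1018 were liver-marking in BP mice too, which is 93.7% of the PBS set and 91.0% of the BP set. Of the 69 others 17 were not tested in BP mice, and the 52 that were tested were all called higher than the mean of the other organs there. Liver-depleted genes overlapped less, with 281 shared, 54.1% of the PBS set and 59.3% of the BP set. Alb had 108763 ± 17762 CPM in BP livers, against 115958 ± 18142 CPM in PBS livers (SD, n = 3 each), Hamp had 4038 ± 484 CPM in BP livers, against 4033 ± 299 CPM in PBS livers, and Mt2 had 134 ± 142 CPM in BP livers, against 406 ± 529.9 CPM in PBS livers. The BP and PBS livers overlapped for these 3 genes.

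Few genes differed between BP and PBS mice in the liver contrast or in liver itself, and the number depended on the tool. The liver contrast of BP mice minus that of PBS mice passed the adjusted threshold for 0 of 18613 genes (0%) by the edgeR quasi-likelihood test, with 385 genes at an unadjusted p under 0.05, and DESeq2 called 11, none of them liver-marking. BP livers against PBS livers directly gave 3 of 12740 genes (0.0235%), none of them among the 1087 liver-marking genes, with 454 genes at an unadjusted p under 0.05. DESeq2 called 37, of which 5 were liver-marking. With the mouse number as a replicate block edgeR gave 3 genes, 1 of them liver-marking. Without the block its count was 1 without the PBS liver of mouse 1 or 2, 9 without that of mouse 3 and 8 without the BP liver of mouse 3. Over those 1087 genes the log2 fold change of BP over PBS liver had a median of -0.08 with quartiles of -0.22 and 0.03, and 19 genes lay beyond 1 in either direction without passing the test. The 385 and 454 genes at an unadjusted p under 0.05 are each fewer than 0.05 of the genes tested. A share of 0.05 would be expected to pass without any difference. With 3 mice per group, small differences were not detectable, and larger ones could be missed as well. Among the liver-marking genes the log2 fold changes reached -2.42 and 1.83 without passing the edgeR test.

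**Figure D5:**
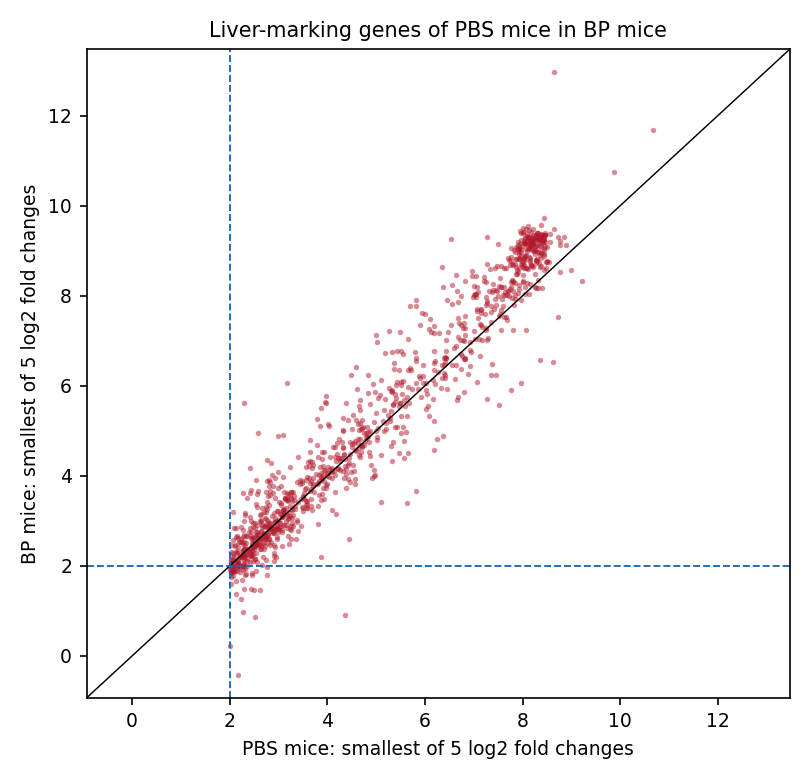
Smallest of the 5 log2 fold changes of liver over another organ in BP mice (vertical axis) and PBS mice (horizontal axis) for the 1070 liver-marking genes of PBS mice that were also tested in BP mice. Each point is a gene, the solid line is equality and dashed lines mark the limit of 2. The liver-marking genes of at least 1000 CPM had a median of 8.10 in BP mice, against 7.56 in PBS mice.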

How the data were processed

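Whole-tissue RNA of PBS and BP mice was sequenced. Per the submitters' processing notes the tools were FastQC 0.11.9, cutadapt 3.5, STAR 2.7.9a and RSEM 1.3.1 on mm10, and the authors deposited a table of expected counts per gene. The annotation release and the strand setting are not given in the sources used here, so antisense and overlapping genes (38 liver-marking genes are annotated antisense) are uncertain. Gene symbols were matched by Ensembl ID for 55141 of 55487 genes and positions for 55227, from GENCODE M21 on GRCm38. Here expected counts were rounded, genes were kept by filterByExpr (minimum count 10), and the 18 PBS libraries were fitted together with organ and mouse terms by the edgeR quasi-likelihood test (edgeR 4.0.16, R 4.3.3, TMM scaling), with two-sided p-values adjusted by Benjamini-Hochberg at 0.05. The SE of a fold change is its absolute log2 value divided by the square root of the F statistic of its test. It is thus derived from the test rather than fitted, and is uncertain for genes near 0 counts. TPM was computed here from counts and exon lengths. The script was tested on simulated data. The members and 44 gene lists were chosen with earlier results of these data known. Named genes were the 10 highest liver-marking genes, the 8 most restricted, the 8 most depleted, the 6 most and 3 least variable, and in each described list the 3 highest tested genes and those that were lower or not called; others, such as G6pc, Gstm1 and Lamp2, were chosen after their values were seen, and some list members are not reported here. Libraries with the same number come from 1 mouse per the labels; deviations of same-mouse libraries correlated with a median of 0.058 (-0.051 to 0.466, 45 pairs), against -0.035 for different mice (90 pairs). No replicate pair agreed within sampling noise (lowest chi-square 9.39 per degree of freedom). Alternatives were DESeq2 1.42.0, RLE and library-total scaling, other fold limits, no filter, no block, the 15 libraries as 1 group, and leaving out each library or mouse.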

Additional observations from a re-analysis of the deposited data

How the results depend on the processing

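The 1087 liver-marking genes became 1053 to 1164 without any 1 library and 1058 to 1095 without any 1 mouse. Without the lymph node of mouse 2 there were 1164, of which 1086 were shared, and without its lymph node and lung, an alternative chosen after seeing the data, 1141 with 1064 shared. Under plain library totals 2576 genes were higher and 10901 lower in liver. The liver-marking rule then held for only 782 genes in PBS mice, all of them among the 1087, and for 820 in BP mice. The opposite rule gave 1314 liver-depleted genes. The median level of the most abundant genes in other organs was 0.596% of liver under library totals, against 0.265%. A log2 limit of 1 gave 1695 liver-marking and 995 liver-depleted genes in PBS mice and 1763 liver-marking genes in BP mice, and a limit of 4 gave 622, 110 and 649. With the 15 other libraries as 1 group 2993 genes were higher and 2891 lower. The replicate block changed little: without it 5127 genes were higher, 6246 lower, 1076 liver-marking and 513 liver-depleted, and 1103 were liver-marking in BP mice. In BP against PBS livers the replicate block gave 3 genes, 1 of them liver-marking, DESeq2 gave 37 genes, and leaving out 1 liver gave 1 to 9. DESeq2 gave 11 genes for the difference between the liver contrasts. Over 138 named genes and 3864 alternative values, 3722 kept direction and call, 70 lost the call, 29 gained one and 43 reversed. Among genes called in the report the reversals were Csf1r at -0.34 (0.66 with TMM) and Pparg at -0.0075 (1.01) under library totals, and Marco at -0.38 (2.24 with organs weighted equally), Klf1 at -2.51 (1.303 ± 0.34) and Hopx at -1.63 (1.43) with the 15 libraries as 1 group. The other reversals were of genes not called with TMM. Under library totals these were Acly at -0.30, Axin2 at -0.48, Cdh1 at -0.47, Cfp at -0.29, Il1rn at -0.61, Lyve1 at -0.42, Pdk4 at -0.37, Per1 at -1.01 and Srebf2 at -0.89. Per1 and Srebf2 were then called lower in liver by the edgeR test (adjusted p = 0.0041 and 0.0042). With the 15 libraries as 1 group they were Axin2 at -0.26, Cdh1 at -1.47, Il1rn at -0.49, Lyve1 at -1.39, Pdk4 at -1.68 and Per1 at -0.12. Per1 was at -0.022 without the filter and at -0.10 without the lymph node and lung of mouse 2. Leaving out 1 library or mouse, Axin2 ranged from -0.0052 to 1.009, Bambi from -0.65 to 0.018, Cry1 up to 0.26, Per1 from -0.17 to 0.22 and Sftpc from -1.24 to 0.31. With the 15 libraries as 1 group the calls of Trf, F3, Vwf, Lcn2, Cyp2f2, Scd1, Fasn, Foxa2, Tef, Npas2, Csf1r, Dnase1l3, Dcn, Pdgfrb, Des, Cd79a, Afp, Csn3, Elovl3, Erbb2, Hbb-bs, Krt8, Krt18, Pparg, Plin1, Adipoq, Ucp1 and Xbp1 were lost. The causes were not tested. Genes under about 10 CPM in liver rest on few counts.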

Other observations

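The low level of abundant liver genes outside liver was also measured in BP mice. The 169 genes stood at a median of 0.238, 0.221 and 0.00898% of the liver level in the bone marrow of BP mice 1, 2 and 3, against 0.235, 0.231 and 0.235% in the bone marrow of PBS mice. In spleen the medians were 0.289, 0.383 and 0.0427% in BP mice, against 0.297, 0.312 and 0.311% in PBS mice. In lymph node they were 0.217, 0.0252 and 0.111% in BP mice, against 0.265, 0.832 and 0.277% in PBS mice. In lung they were 0.326, 0.154 and 0.217% in BP mice, against 0.249, 0.426 and 0.355% in PBS mice, and in tumor 0.237, 0.170 and 0.117% in BP mice, against 0.171, 0.154 and 0.171% in PBS mice. The spread between libraries was not tested.

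The surfactant gene Sftpc, an abundant gene of lung, was also found at low levels in every PBS organ. It had 24.7, 20.5 and 51.7 CPM in liver, 0.133, 11.2 and 13.98 CPM in tumor, 0.139, 19.8 and 20.5 CPM in spleen and 0.0769, 15.9 and 18.4 CPM in bone marrow of mice 1, 2 and 3. In mouse 1 the tumor, spleen and bone marrow were thus far lower than in mice 2 and 3, while its liver was not. The lymph node values of Sftpc are not reported here, so the pattern is described for the listed organs only.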
